A study of Mus musculus with 3 samples.

Results

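The genes described are the ligands and receptors of axon guidance measured in mouse astrocytes made in culture. They are every gene whose platform symbol belongs to the ephrins, Eph receptors, semaphorins of classes 3 to 7, plexins, neuropilins, Slits, Robo receptors, netrins, netrin-G proteins, Unc5 receptors or Dcc, on probe sets annotated to 1 gene. This gave 70 genes on 157 probe sets, of 18194 named genes with a value. The rule uses names and no measured value, but it was chosen with earlier results of these data known. All 70 symbols were also the current RefSeq symbols of the same gene identifiers. Of the genes, 37 code for ligands and 33 for receptors. Ephb2 had no probe set in the annotation and was not analysed here.

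The cells were wild-type mouse embryonic stem cells grown into embryoid bodies for 4 days, selected in ITSFn medium for 5 to 7 days and kept as neural precursors with FGF2 and EGF2, the names the labels use. At 18 passages from the embryoid bodies the factors were withdrawn and 5% FBS (fetal bovine serum) was given for 5 days. All 3 samples form 1 group (n = 3) and share these steps, so there is no untreated, precursor or brain sample to compare with, and the stem cell line is not named. Total RNA went to 1-colour Affymetrix mouse genome arrays, whose probe sets report the brightness of short probes for 1 transcript. The labels do not state whether separate cultures were used, so p-values cover the variation among these 3 arrays alone, and it may be technical.

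Growth cones read guidance cues on cells and in the matrix around them. Ephrins sit on the membrane and bind Eph tyrosine kinases on the next cell, semaphorins act through plexins, with neuropilins as co-receptors for most secreted members, Slits act through Robo receptors, and netrins attract through Dcc or repel through Unc5 receptors. Astrocytes and their precursors are known to carry several of these cues, which guide or stop growing axons, set borders between cells and act at synapses and scars.

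Levels are log2 signal, and 3 values in a row are replicates 1, 2 and 3. Background was read per array from 78 olfactory, vomeronasal, trace-amine and taste receptor genes, and the limit, their 95th percentile, lay at 3.99, 4.10 and 4.07. A gene was called above background when its signal minus that limit exceeded 0 in a one-sided limma test with a Benjamini-Hochberg adjusted p below 0.05 over 18116 genes. Probe sets differ in brightness, so the level of one gene is not set against that of another, and a gene that was not called is not shown to be absent. The median signal of all probe sets was 20.02, 23.3 and 19.4 on the linear scale. The number of arrays limits the precision.

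The cells carried the astrocyte label in their RNA, with all 9 markers above background, among them Gfap at 12.63 ± 0.12, Aqp4 at 11.87 ± 0.10, S100b at 9.57 ± 0.19 and Slc1a3 at 10.95 ± 0.25 (SD, n = 3). Over all 9 the means ran from 5.45 to 12.63. Precursor markers were also above background (5 of 5), with means from 8.97 to 13.47. Among them were Nes at 10.45 ± 0.60, Sox2 at 11.42 ± 0.24, Fabp7 at 12.83 ± 0.02 and Pax6 at 8.97 ± 0.15. Neuronal markers were above it in 5 of 8 cases, beside 58.3% of all genes tested. Called were Map2 at 10.91 ± 0.16, Syt1 at 7.24 ± 0.12, Rbfox3 at 6.66 ± 0.30, Tubb3 at 5.83 ± 0.65 and Dcx at 5.09 ± 0.32. Not called were Snap25 at 2.02 ± 0.50, Stmn2 at 1.93 ± 0.75 and Nefl at 2.10 ± 0.26. Above background were 2 of 6 oligodendrocyte lineage, 1 of 5 endothelial, 1 of 5 microglia and blood, and 2 of 6 mesenchymal markers. In that order these were Sox10 at 4.64 and Pdgfra at 5.81, Kdr at 6.59, Csf1r at 5.34, and Twist1 at 7.58 and Prrx1 at 6.09. Over all markers of these lists, called or not, means ranged from 1.14 to 7.58. These are bulk samples, so fewer cells of a type and less RNA per cell cannot be told apart, and which cells carried a guidance gene was not tested.

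Of the 70 guidance genes, 43 (61.4%) were above background and 27 were not, while 58.3% of all genes tested were called. The share of guidance genes is thus near the share of all genes. Each gene took its highest probe set, and counted by probe set the shares were 45.9% for guidance genes and 52.2% for all. The median distance from the limit was 1.065 log2 units over the guidance genes and 1.76 over all genes tested. Among ligands 23 of 37 (62.2%) were called and among receptors 20 of 33 (60.6%), with median distances of 1.25 and 0.95 log2 units. On single arrays the number of ligands above the limit was 25, 27 and 26, and that of receptors was 22, 20 and 25. As shares these were 67.6%, 73.0% and 70.3% of ligands and 66.7%, 60.6% and 75.8% of receptors, beside 64.6% of all genes on each array. The ligand share minus the receptor share was 0.90, 12.4 and -5.49 percentage points, a mean of 2.59 ± 9.05 (SD, n = 3), so ligands and receptors differed by less than the spread between arrays.

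Called shares spread more widely over families than over roles, as shares over few genes do in any case. Every plexin and neuropilin was called (11 of 11), against 2 of 9 EphA receptors, 1 of 4 Unc5 receptors and 0 of 2 netrin-G genes (0 also at an unadjusted p below 0.05, limma). Ephrins were called in 6 of 8 cases, semaphorins in 13 of 20, EphB receptors in 3 of 4, netrins in 3 of 4, Slits in 1 of 3 and Robo receptors in 2 of 4. These are counts over few genes with no test between families, to be read against the 58.3% of all genes called, and the semaphorins (65%) lie near it.

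**Figure D1:**
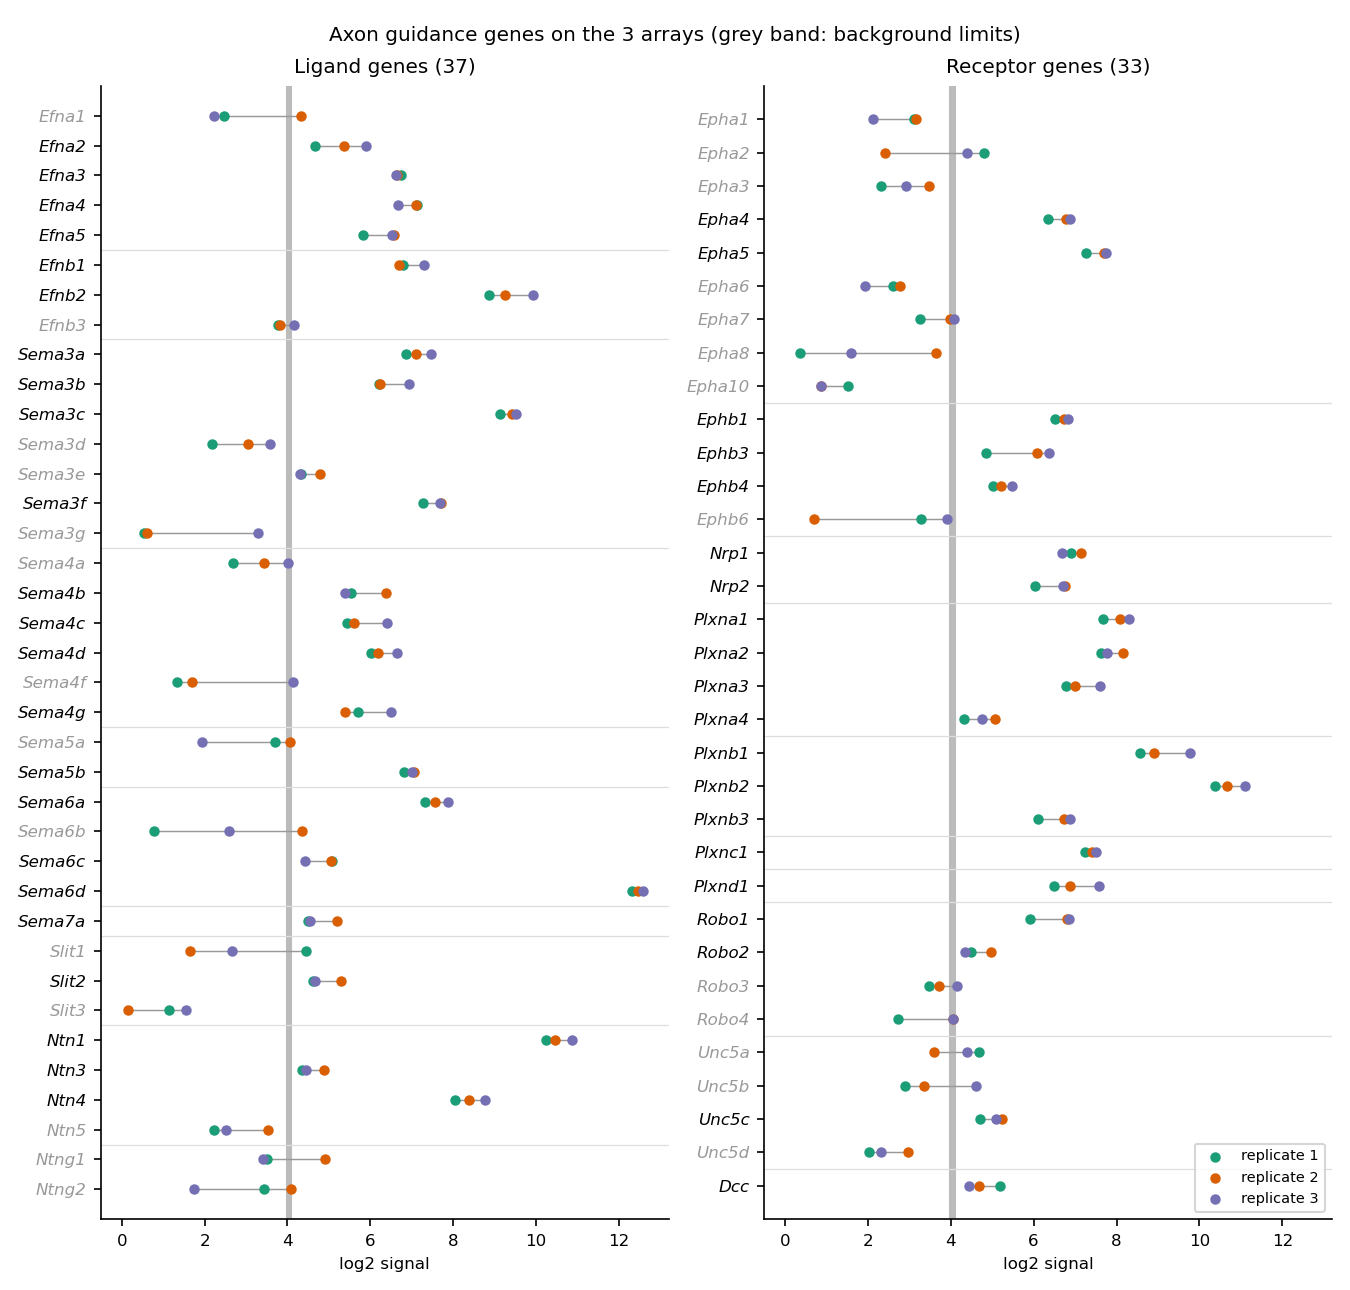
Log2 signal (horizontal axis) of each ligand gene (left) and receptor gene (right) on the 3 arrays, 1 point per array, with a thin line over their range. Names in black are the 43 genes above background, names in grey are the other 27, and the grey band spans the limits from 3.99 to 4.10. Called genes lie to the right of the band on every array, though 9 of them have an SD over 0.5, as do 20 of those not called, several of which scatter across the band.

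**Figure D2:**
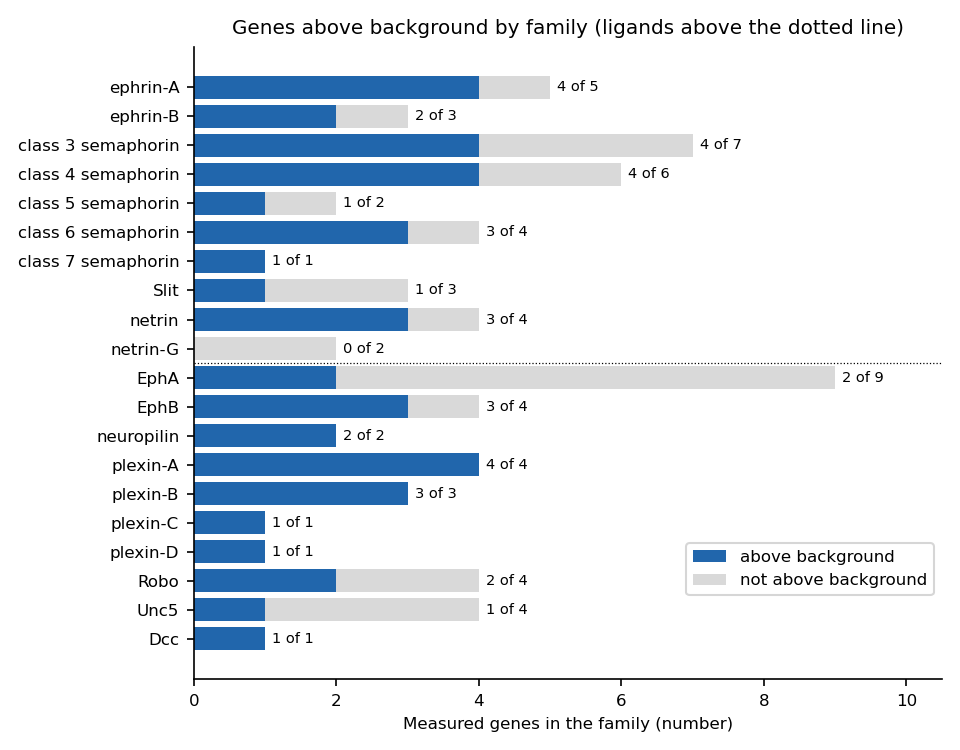
Number of measured genes per family (horizontal axis), with those above background in blue and the rest in grey. Plexin and neuropilin bars are blue throughout (11 of 11), and the EphA bar is mostly grey (2 of 9).

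Promoter sequence was the feature outside the naming rule that could be read for most of these genes. Of the 70, 60 had a 300-base window around an annotated start in the RefSeq table of build GRCm38.p6, and 12 of these had several windows, of which the one with the most CG dinucleotides was taken. The letters searched were CG, which read the same on both strands. Over all genes tested that had a window, those above background held a median of 23 CG and those not above it 7, and the share with an observed over expected CG ratio above 0.6 was 80.9% against 28.5%. Guidance genes above background held a median of 23.5 CG (36 genes) and those not above it 17.5 (24 genes), and 25 of 36 (69.4%) against 13 of 24 (54.2%) passed that ratio. The share was 63.3% over all 60 members and 60% over all genes tested. Guidance genes that were not called thus lay closer in CG content to the called ones than genes at large did, a description with no test.

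**Figure D3:**
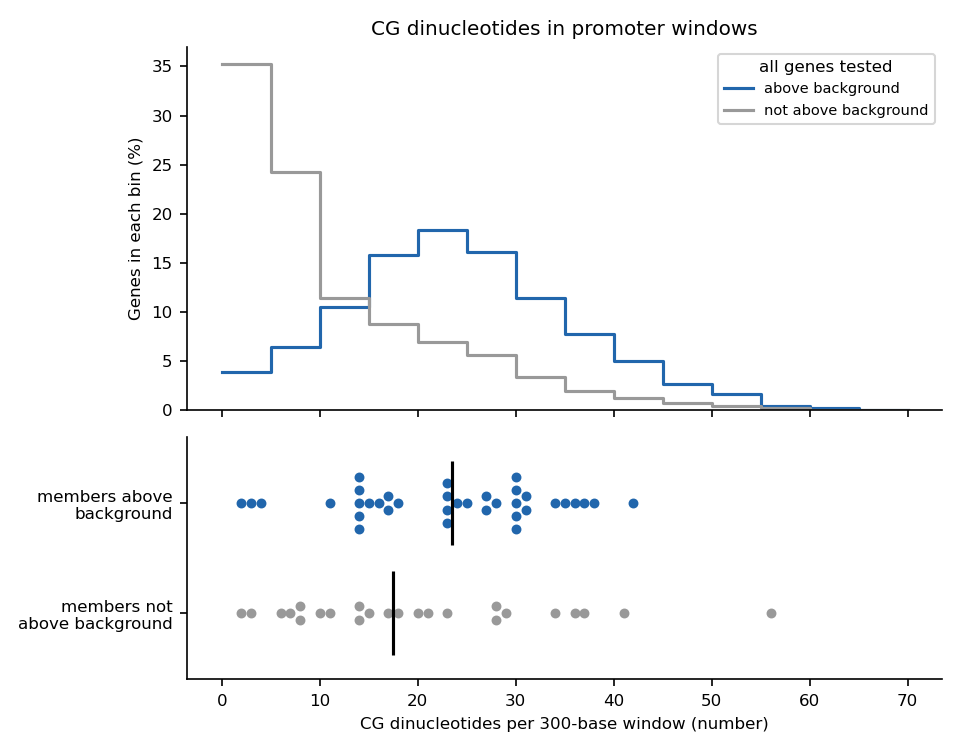
CG dinucleotides per 300-base promoter window (horizontal axis). The upper panel gives the percent of all tested genes in bins of 5 CG, for genes above background (blue) and not above it (grey). The lower panel shows 1 point per guidance gene with a window, with a bar at the median of 23.5 for the 36 called and 17.5 for the 24 not called, and the 2 sets overlap along most of the range.

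The windows with the most and the fewest CG on either side of the call are printed to show the range of CG content on each side. They were chosen after their values were seen, read 5′ to 3′ on the gene's strand in build GRCm38.p6, and have CG in capitals. Sema3c (chr5:17574566-17574865, plus strand) was above background with 42 CG, and Sema3a (chr5:13396534-13396833, plus strand) was above it with 2. Epha8 (chr4:136956767-136957066, minus strand) was not above background with 56 CG, and Robo4 (chr9:37401722-37402021, plus strand) was not above it with 2. Which start these cells used was not measured.
Sema3c: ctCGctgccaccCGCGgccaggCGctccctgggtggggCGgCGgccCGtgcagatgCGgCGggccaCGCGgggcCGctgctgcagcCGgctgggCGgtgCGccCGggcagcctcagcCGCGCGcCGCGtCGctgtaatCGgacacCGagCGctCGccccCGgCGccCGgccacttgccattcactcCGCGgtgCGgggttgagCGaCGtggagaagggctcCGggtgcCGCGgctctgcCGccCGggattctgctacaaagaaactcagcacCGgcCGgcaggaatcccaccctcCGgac
Sema3a: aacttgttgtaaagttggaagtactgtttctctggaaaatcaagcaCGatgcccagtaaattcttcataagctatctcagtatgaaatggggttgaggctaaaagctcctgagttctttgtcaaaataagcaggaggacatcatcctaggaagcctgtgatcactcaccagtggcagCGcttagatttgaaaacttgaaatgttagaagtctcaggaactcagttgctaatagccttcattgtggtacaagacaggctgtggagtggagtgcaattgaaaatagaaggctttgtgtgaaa
Epha8: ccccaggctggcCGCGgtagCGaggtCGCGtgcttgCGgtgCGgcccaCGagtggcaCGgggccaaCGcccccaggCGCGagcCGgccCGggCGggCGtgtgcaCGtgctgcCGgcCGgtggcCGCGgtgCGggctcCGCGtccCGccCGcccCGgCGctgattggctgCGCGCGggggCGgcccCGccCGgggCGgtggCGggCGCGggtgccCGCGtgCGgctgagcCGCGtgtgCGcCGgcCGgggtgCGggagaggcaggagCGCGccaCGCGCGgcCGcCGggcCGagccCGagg
Robo4: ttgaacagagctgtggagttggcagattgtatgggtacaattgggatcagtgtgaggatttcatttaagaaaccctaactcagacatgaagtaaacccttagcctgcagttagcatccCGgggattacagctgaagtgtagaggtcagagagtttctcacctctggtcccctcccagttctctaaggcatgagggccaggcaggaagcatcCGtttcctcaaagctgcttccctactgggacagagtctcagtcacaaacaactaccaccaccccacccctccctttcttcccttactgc

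Ephrin ligands were above background in 6 of 8 cases, 4 of 5 of class A and 2 of 3 of class B. Ephrin-A proteins are held to the membrane by a lipid anchor and bind mainly EphA receptors. Efna3 lay at 6.73, 6.64 and 6.61, with an SD of 0.06 over the arrays and both of its probe sets called. Efna4 lay at 7.13, 7.09 and 6.67 on its only probe set. Both were more than 2 log2 units above the limit on every array. Efna5, known from the mapping of retinal axons, lay at 5.82, 6.57 and 6.51, lowest on replicate 1. Efna2 lay at 4.66, 5.36 and 5.88, the widest span of the called class A ligands (adjusted p = 0.012, limma). Each of these rested on 1 of 2 probe sets, and with the median of its probe sets Efna2 was -0.0798 from the limit and Efna5 was no longer called (adjusted p = 0.865, limma). Efna1 was at 2.47, 4.33 and 2.22 and was not called, with replicate 2 alone above the limit.

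Ephrin-B proteins cross the membrane and can signal back into the cell that carries them. Efnb2, also a ligand of EphB4 in blood vessels, lay at 8.86, 9.26 and 9.92, lowest on replicate 1 and highest on replicate 3, 5.29 log2 units above the limit on average (adjusted p = 0.000105, limma), and 3 of its 4 probe sets were called. Efnb1 lay at 6.78, 6.68 and 7.30 with 3 of 3 probe sets called. Both class B ligands were far above the limit on all 3 arrays. Efnb3 lay at 3.77, 3.82 and 4.15 on its only probe set, on both sides of the limit, and was not called.

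Secreted semaphorins of class 3 bind neuropilins, and 4 of 7 were above background. Sema3a, the classic repellent that collapses growth cones, lay at 6.85, 7.10 and 7.46, and 2 of its 3 probe sets were called. Sema3c lay at 9.12, 9.42 and 9.53 with both probe sets called, 5.30 log2 units above the limit (adjusted p = 3.95e-05, limma). Sema3f, a repellent that acts through Nrp2, lay at 7.26, 7.71 and 7.67 with 3 of 3 called. These 3 ligands were lowest on replicate 1 and well above the limit on every array. Sema3b lay at 6.21, 6.23 and 6.93 on 1 of 3 probe sets, and with the median of its probe sets it was 0.80 above the limit and not called (adjusted p = 0.0698, limma). Sema3e, which binds Plxnd1 without a neuropilin, lay at 4.32, 4.79 and 4.31, above the limit on all 3 arrays but not called (adjusted p = 0.0537, limma). It was called with the limit at the 90th percentile (adjusted p = 0.0123) and after quantile normalization (adjusted p = 0.0471). Sema3d was at 2.93 ± 0.70 and Sema3g at 1.48 ± 1.57 (SD, n = 3), below the limit on each array.

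Membrane-bound semaphorins were above background in 9 of 13 cases. Sema6d, a transmembrane ligand that binds Plxna1, lay at 12.32, 12.45 and 12.58, 8.40 log2 units above the limit with an SD of 0.13, and all 4 of its probe sets were called, at means from 5.38 to 12.45. Sema6a, a ligand of Plxna2 and Plxna4, lay at 7.31, 7.55 and 7.88 on 2 of 3 called probe sets. Sema5b lay at 6.82, 7.06 and 7.00 with both of its probe sets called. For these 3 genes the arrays differed by far less than the distance from the limit. In class 4, Sema4c, which binds Plxnb2, lay at 5.44, 5.61 and 6.41, and Sema4g lay at 5.71, 5.39 and 6.51, each on its only probe set. Sema4d, the ligand of Plxnb1, lay at 6.03, 6.19 and 6.63, and Sema4b at 5.53, 6.37 and 5.39. The class 4 genes named so far were above the limit on all arrays, but Sema4d was called on 1 of 3 probe sets and Sema4b on 1 of 2, and with the median of their probe sets they were -0.60 and -1.09 from the limit.

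The other called semaphorins lay close to the limit. Sema6c was at 5.08, 5.05 and 4.42 (adjusted p = 0.0199, limma), and Sema7a, a lipid-anchored member that binds Plxnc1, was at 4.49, 5.19 and 4.54 (adjusted p = 0.0246, limma). Each was above the limit on all 3 arrays on 1 probe set, of 3 and of 2. Sema6c was not called without replicate 1 (adjusted p = 0.0796) or replicate 2 (0.0891). Sema7a was not called without replicate 1 (0.0565), replicate 2 (0.122) or replicate 3 (0.0543). Its distance from the limit was 0.69 log2 units on all 3 arrays and 0.78, 0.49 and 0.80 without replicates 1, 2 and 3. A test on fewer arrays is weaker, so a lost call need not mean a lower level. The 4 that were not called were Sema4a at 3.38 ± 0.67, Sema4f at 2.38 ± 1.52, Sema5a at 3.23 ± 1.14 and Sema6b at 2.58 ± 1.79 (SD, n = 3). Sema6b ranged from 0.78 on replicate 1 to 4.35 on replicate 2, so these values carry little information on its level.

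Netrins were above background in 3 of 4 cases. Ntn1, the floor plate cue that draws commissural axons, lay at 10.24, 10.45 and 10.86, 6.46 log2 units above the limit (adjusted p = 4.04e-05, limma). Its second probe set had a mean of 5.12 and was not called (adjusted p = 0.0528, limma over probe sets), so its probe sets disagree in distance though both lay above the limit. Ntn4, a netrin found in basement membranes, lay at 8.05, 8.38 and 8.78 with both probe sets called. Both netrins were lowest on replicate 1 and highest on replicate 3. Ntn3 lay at 4.36, 4.89 and 4.45 on 1 probe set (adjusted p = 0.0326, limma), and was not called without replicate 1, 2 or 3 (adjusted p = 0.0747, 0.194 and 0.0637). Its distance from the limit was 0.51 log2 units on all 3 arrays and 0.58, 0.37 and 0.58 without replicates 1, 2 and 3. Ntn5 was at 2.76 ± 0.69 and was below the limit on each array. The netrin-G genes, whose lipid-anchored products act at synapses, were at 3.93 ± 0.84 for Ntng1 and 3.09 ± 1.20 for Ntng2, and neither was called.

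Slit2, a secreted repellent, was the called member of the 3 Slit genes. It lay at 4.61, 5.29 and 4.67, highest on replicate 2 and above the limit on each array (adjusted p = 0.0142, limma), on 1 of 3 probe sets. Without replicate 2 it was 0.61 above the limit and not called (adjusted p = 0.075, limma), and with that array left out 2 of the 9 Slit, netrin and netrin-G genes were called in place of 4. Slit1 was at 4.44, 1.66 and 2.65, above the limit on replicate 1 alone. Slit3 was at 1.15, 0.16 and 1.54. Neither was called.

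Plexins, the signalling receptors for semaphorins, were above background without exception (9 of 9). Plxnb2, a plexin also used by neural precursors, lay at 10.37, 10.68 and 11.09 on its only probe set, 6.66 log2 units above the limit (adjusted p = 4.17e-05, limma). Plxnb1 lay at 8.56, 8.90 and 9.77 with both probe sets called, and Plxnb3 at 6.11, 6.74 and 6.89 with both called. All 3 class B plexins were lowest on replicate 1 and highest on replicate 3. Among class A plexins, which pair with neuropilins, Plxna1 lay at 7.68, 8.09 and 8.29 and Plxna2 at 7.64, 8.16 and 7.78. Plxna3 lay at 6.77, 7.01 and 7.61. All of their probe sets were called for Plxna2 (4 of 4) and Plxna3 (2 of 2), and 1 of 2 for Plxna1. Plxna4 lay at 4.33, 5.06 and 4.74, 0.66 log2 units above the limit (adjusted p = 0.023, limma), and was not called without replicate 2 (0.127) or replicate 3 (0.085).

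Plxnd1, the receptor of Sema3e, lay at 6.49, 6.87 and 7.57 on 1 probe set, and Plxnc1, the receptor of Sema7a, at 7.25, 7.40 and 7.51. Both were above the limit by over 2 log2 units on each array. The 6 probe sets of Plxnc1 disagreed, with 2 called and 4 not called at means from 0.41 to 4.17, and its median probe set was -0.0156 from the limit. Of the neuropilins, which bind class 3 semaphorins and hold no kinase of their own, Nrp1 lay at 6.91, 7.15 and 6.68 and Nrp2 at 6.03, 6.75 and 6.71. Each was called on 3 of 4 probe sets, and all arrays were above the limit.

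Of the EphA receptors, 2 of 9 were above background, with a median distance of -1.15 log2 units from the limit. Epha5 lay at 7.27, 7.70 and 7.75, and all 4 of its probe sets were called (adjusted p = 8.47e-05, limma). Epha4, the EphA receptor that also binds ephrin-B, lay at 6.34, 6.79 and 6.87. Both were lowest on replicate 1 and above the limit on every array. Epha4 was called on 2 of 5 probe sets, whose means ran from -1.32 to 6.67, and with their median it was 0.36 above the limit and not called (adjusted p = 0.517, limma). Epha2 lay at 4.80, 2.42 and 4.39 and Epha7 at 3.26, 3.99 and 4.08, with arrays on both sides of the limit. Epha1, Epha3, Epha6, Epha8 and Epha10 were below the limit on every array, with means of 2.80, 2.90, 2.43, 1.87 and 1.09. No probe set of the 7 uncalled EphA genes was above background.

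EphB receptors, which bind ephrin-B, were above background in 3 of 4 cases, each measured by 1 probe set. Ephb1 lay at 6.52, 6.74 and 6.82, Ephb4 at 5.01, 5.21 and 5.47, and all of these were above the limit. Ephb3 lay at 4.85, 6.07 and 6.38, with replicate 1 well below the other arrays (adjusted p = 0.00952, limma), and was not called without replicate 3 (0.051). Ephb6, a member without kinase activity, lay at 3.29, 0.70 and 3.90 and was not called.

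Of the Robo, Unc5 and Dcc receptors, which bind Slits and netrins, 4 of 9 were above background, against 58.3% of all genes. Robo1 was at 5.92, 6.81 and 6.86, lowest on replicate 1 and above the limit throughout (adjusted p = 0.000868, limma), on 1 of 3 probe sets, and its median probe set was -0.49 from the limit. Robo2 was at 4.49, 4.97 and 4.33 (adjusted p = 0.0387), and was not called without replicate 1 (0.107) or replicate 2 (0.198), nor in the test over probe sets. Robo3, which tunes the Slit response of commissural axons, was at 3.79 ± 0.35 and was not called. Robo4, an endothelial member, was at 3.62 ± 0.76, below the limit on each array, and of the 5 endothelial markers Kdr alone was above background; the part of such cells in these values was not tested. Dcc was at 5.20, 4.67 and 4.45 (adjusted p = 0.0324, limma) on 1 of 3 probe sets, and was not called without replicate 1 (0.0859) or replicate 2 (0.0812). Unc5c was at 4.70, 5.23 and 5.08 (adjusted p = 0.0044) on 1 of 2 probe sets. Both were above the limit on all arrays, and their mean distances were 0.72 and 0.95 log2 units. Unc5a was at 4.67, 3.59 and 4.39 and was not called (adjusted p = 0.483), and Unc5b at 3.62 ± 0.88 and Unc5d at 2.44 ± 0.48 were not called either. Of these 9 genes 2 were called without replicate 1 or without replicate 2.

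The probe sets of 1 gene did not always agree. Over all probe sets with 1 gene 52.2% were above background, and 72 of the 157 member probe sets (45.9%) were. Of the 43 called genes, 10 had 1 probe set, 12 had several that were all called and 21 had several of which some were not. With the median of each gene's probe sets 29 members were called, 15 ligands and 14 receptors, against 50.6% of all genes, and with the lowest probe set 20 were, against 35.2%. Signal above the limit on all 3 arrays, with no test, was found for 44 members and for 59.8% of all genes. The 8 called members within 1 log2 unit of the limit (Sema6c, Sema7a, Slit2, Ntn3, Plxna4, Robo2, Unc5c and Dcc) were not called with the limit at the 99th percentile.

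**Figure D4:**
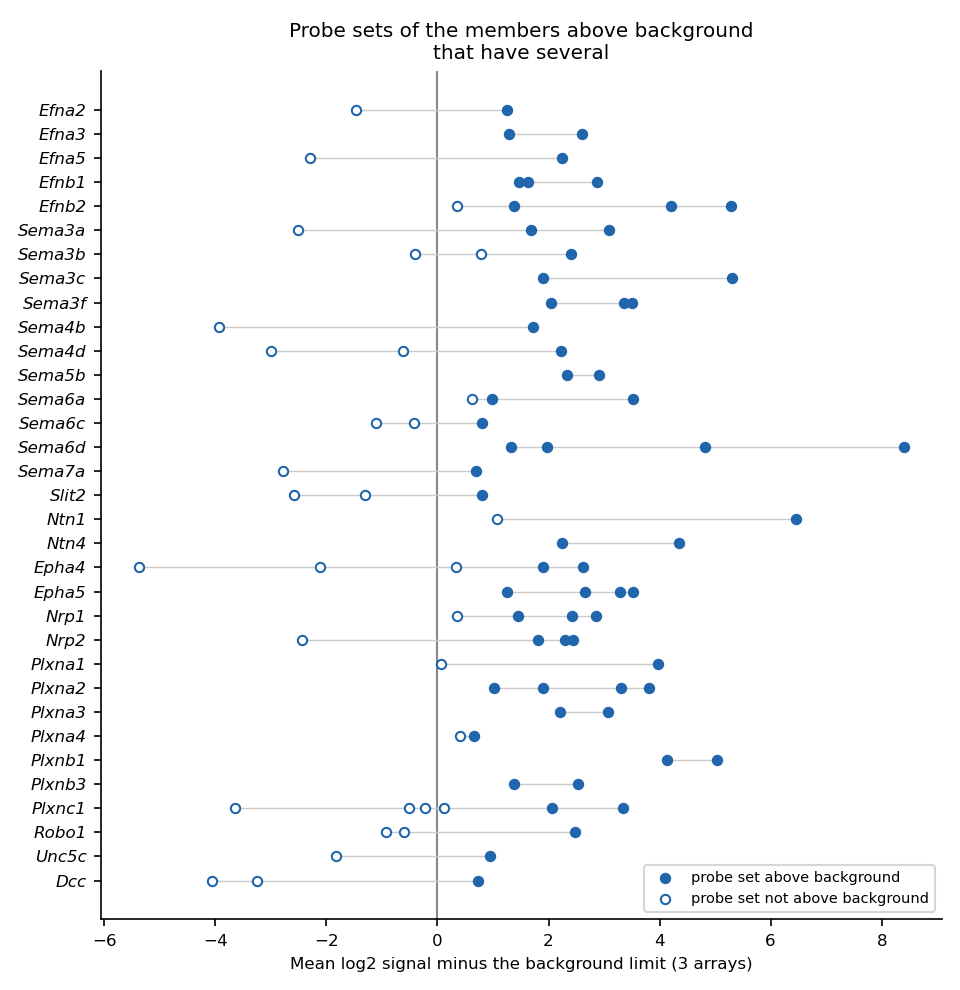
Mean log2 signal minus the background limit (horizontal axis) of every probe set of the called members that have several, 1 row per gene. Filled points are probe sets above background and open points are not. For 12 genes all points are filled, and for 21 at least 1 is open.

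Known partners were then set side by side from a list of 95 textbook pairings, of which 92 had both genes measured. In 33 both genes were above background, in 33 the ligand alone, in 18 the receptor alone and in 8 neither. Of all single genes tested 58.3% were called, and pairs drawn from all genes were not counted, so no excess of called pairings is shown. With the median of each gene's probe sets both genes were called in 18 pairings, and with the lowest probe set in 7. For class 3 semaphorins and neuropilins both were called in 5 of 7 pairings, namely Sema3a with Nrp1, Sema3b and Sema3f with Nrp2, and Sema3c with both. For semaphorins and plexins it was 8 of 14, among them Sema4d with Plxnb1, Sema4c with Plxnb2, Sema6d with Plxna1 and Sema7a with Plxnc1. In the other 6 the receptor alone was called, since every plexin was. In the ephrin-A and EphA class, where most members bind each other, both were called in 8 of 45 pairings and the ligand alone in 28. In the ephrin-B and EphB class both were called in 6 of 12 measured pairings. Slit2 with Robo1 and Robo2 gave 2 of 6. Ntn1 with Dcc and Unc5c gave 2 of 5, in a class that left out Neo1, another netrin receptor (called, 9.87 ± 0.32). These counts changed when 1 array was left out: Slit and Robo pairings fell to 1 without replicate 1 and to 0 without replicate 2 (1 at an unadjusted p below 0.05, limma), and netrin pairings to 1 without replicate 1 or without replicate 2. Without replicate 3 the ephrin-B and EphB pairings were 4, and semaphorin and plexin pairings were 7, 6 and 6 without replicates 1, 2 and 3. Fewer arrays also weaken the test behind these counts. Pairings share genes, and levels of transcripts do not show binding.

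Other genes of the pathway were counted in the same way, with no test between lists. Of 22 measured cofactors 18 (81.8%) were above background, against 58.3% of all genes. Neo1, a netrin and RGM receptor related to Dcc, was at 9.87 ± 0.32, and its ligands Rgma and Rgmb were at 9.20 ± 0.39 and 6.90 ± 0.38 (SD, n = 3). Draxin, a secreted repellent that binds Dcc, was at 6.30 ± 0.11. All 4 were called, Neo1 on 2 of 5 probe sets, Rgma on 1 of 1, Rgmb on 5 of 6 and Draxin on 1 of 2. Dscam at 3.81 ± 0.55, Chl1 at 4.35 ± 0.68, Cntn2 at 3.49 ± 0.78 and Rtn4r at 4.04 ± 0.45 were not called. Of 48 measured cytoplasmic effectors 45 (93.8%) were above background, among them the kinases Fyn at 8.99 ± 0.29 and Src at 6.91 ± 0.53 and the adaptors Nck1 at 9.03 ± 0.06 and Nck2 at 9.67 ± 0.20. Many effectors, such as small GTPases, serve other pathways in most cells. Those not called were Mical1 at 2.54 ± 1.35, Mical2 at 3.88 ± 0.64, both actin-oxidising partners of plexins, and the kinase Fes at 2.86 ± 0.27.

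The called guidance genes varied somewhat more between arrays than called genes at large, with a median SD of 0.34 against 0.24 log2 units. These SDs were not compared at like signal level. Over guidance genes and all genes tested, called or not, the median distances from the limit were 1.065 and 1.76 log2 units. Whether level accounts for the wider spread was not tested. The SD ran from 0.06 for Efna3 to 0.81 for Ephb3 among the 43 called members, and from 0.21 to 1.79 among the 27 others. Replicate 1 held the lowest value for 34 of the 43 (79.1%), and for 69.4% of all called genes. After each array's median deviation over all called genes (-0.18, 0.02 and 0.16) was taken off, replicate 1 was lowest for 22 of 43 (51.2%), against 33.5% of all called genes, and the members' median deviation there was -0.0920. Replicates have no order, and whether this reflects the cultures or the arrays was not tested.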

How the data were processed

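The authors deposited linear intensity values, 1 for every probe set on each of the 3 arrays, and GCOS 1.4 made them per the submitters' processing notes. The scaling target, detection calls and genome build were not given in the sources used here, and single probes were not analysed. Of 45101 probe sets, 34958 were annotated to 1 gene and kept, and those with several genes (932) or no named gene (9211) were not used. Log2 was taken with no pseudocount, and each gene took the probe set with the highest mean. Of the 78 receptor genes that set the limit 71 had 1 probe set, while 47 of the 70 members had several. The highest of several probe sets can pass such a limit more easily, and the size of this was not tested. Genes were tested with limma 3.58.1 in R 4.3.3 (intercept, eBayes, one-sided), and probe sets in a second fit. The test was also run on simulated data with independent noise. That simulation did not cover the choice of probe set, shifts shared by genes on an array or error in the limit, and its outcome is not given here. Alternatives were another limit, probe set rule, scaling, pseudocount or variance trend, and leaving out each array. Leaving out an array also weakens the test, so a lost call does not show that it depended on that array's value. The members and lists were chosen with earlier results of these data known. Every member could be named, with values on each array for those above background or with a mean above the limit. Of the cofactor and effector lists the genes not called and the first 4 called in list order were named. Of the astrocyte and precursor lists the first 4 were named, and of the neuronal list all 8. Of the other cell type lists the called markers were named. Ligands and receptors were compared by counts with no test, since genes are not replicates.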

Additional observations from a re-analysis of the deposited data

How the results depend on the processing

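Over 12 alternatives with a test, 19 of the 43 called members were called in every one, 26 in every one but the lowest probe set, and 26 of the 27 others were called in none (the exception was Sema3e). The choice of probe set moved most counts. With a gene's lowest probe set the calls were 20 members, 10 ligands (with or without netrin-G), 10 receptors, 3 secreted ligands, 3 ephrins, 6 semaphorins, 1 Slit or netrin, 1 EphA receptor, 6 plexins and neuropilins, 0 Robo, Unc5 and Dcc receptors (limma; 1, Robo2, at an unadjusted p below 0.05), 6 cofactors, 16 effectors and 7 partner pairings. With the median of the probe sets they were 15 ligands (with or without netrin-G), 8 semaphorins, 1 EphA receptor, 0 Robo, Unc5 and Dcc receptors (limma; again Robo2 alone, 1, at an unadjusted p below 0.05) and 18 pairings. With the limit at the 99th percentile 2 Slits and netrins and 1 Robo, Unc5 or Dcc receptor were called. Leaving out 1 array gave 2 to 3 Slits and netrins and 2 to 4 Robo, Unc5 and Dcc receptors. The share of ligands called minus that of receptors called was 1.56 percentage points as reported. It ran from -3.28 (lowest probe set) to 4.26 (among others, the 90th percentile limit) over settings that kept the same genes. With secreted ligands alone it was -3.46, and with netrin-G left out 5.11.

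Called members that fell below the limit did so only under the 2 probe set rules. With the median these were Efna2 (-0.0798), Sema4b (-1.09), Sema4d (-0.60), Sema6c (-0.40), Sema7a (-1.02), Slit2 (-1.28), Plxnc1 (-0.0156), Robo1 (-0.49), Unc5c (-0.42) and Dcc (-2.71 log2 units). With the lowest probe set they were Efna2 (-1.46), Efna5 (-2.30), Sema3a (-2.50), Sema3b (-0.40), Sema4b (-3.94), Sema4d (-3.00), Sema6c (-1.10), Sema7a (-2.78), Slit2 (-2.58), Epha4 (-5.37), Nrp2 (-2.43), Plxnc1 (-3.64), Robo1 (-0.92), Unc5c (-1.84) and Dcc (-4.07). Which probe set reports a gene best was not tested. Ntn3 and Robo2, with 1 probe set each, also lost their calls with a variance trend (adjusted p = 0.0767 and 0.0662, limma).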
